A study of Homo sapiens with 4 samples.

Results

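The E2F transcription factors and the pocket proteins that bind them are encoded by 10 genes followed here, E2F1, E2F2, E2F3, E2F4, E2F5, E2F7, E2F8, RB1, RBL1 and RBL2, of 27193 gene names on the human array. They were taken as the non-control spots that carried 1 of these gene names. Earlier results of these data were known when these genes and the lists of linked genes below were chosen. The 10 genes were read by 13 probes on 31 spots of each array. In PAK1 shRNA cells E2F2, E2F1, RBL1 and E2F7 were lower than in control cells by between 23.6-fold and 2.36-fold. E2F8 also read lower, but it was not well above background in PAK1 shRNA cells and was tested through the control arrays alone. E2F4 was higher by 1.47-fold. E2F3 was higher by 1.29-fold at its brighter probe but not at its second probe. RBL2 was 1.2-fold lower, a call that several alternatives removed, and RB1 and E2F5 did not pass the test.

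E2F factors bind DNA together with a DP partner and control genes needed for DNA replication and division. E2F1, E2F2 and E2F3 are known as activators, E2F4 and E2F5 as repressors that act through pocket proteins, and E2F7 and E2F8 as atypical repressors that need neither a DP partner nor a pocket protein. The pocket proteins RB1, RBL1 (p107) and RBL2 (p130) hold E2F factors in check until cyclin-dependent kinases phosphorylate them. E2F1, E2F2, E2F7, E2F8 and RBL1 are themselves known as genes that E2F factors switch on as cells pass from G1 into S phase, while RBL2 and E2F4 are known to be abundant in resting cells.

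MCF10A.B2 control cells (2 samples) were set against cells of that line with a tetracycline-inducible shRNA against PAK1 (2 samples), the gene of a kinase that signals from Rac and Cdc42. MCF10A is a non-tumorigenic human mammary epithelial line, and the B2 derivative expresses a chimeric ErbB2 (Her2) receptor that the dimerizer AP1510 activates. All 4 samples were grown with 5% horse serum, then starved of serum for 3 h and given AP1510 for 15 min. The samples are also labelled as breast cancer, and the series description speaks of cells from tumors, whereas the methods name the cell line. Whether the control cells were parental cells or uninduced shRNA cells cannot be told apart from the labels, and no array of a non-targeting shRNA was analysed here. The origin of the replicates is not given in the sample labels, so p-values measure the spread between these samples, which may be technical.

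Each array held 43118 non-control spots for 34127 probes, of which 78.9% to 83.1% were well above background, and 21999 genes were tested. Arrays of a group correlated at r = 0.998, and the highest correlation with the other group was 0.94, both across probes. PAK1, read by a probe at chr11:77034135-77034194 (hg19), had normalized log2 intensities of 11.19 and 11.27 in control cells and 10.44 and 10.52 in PAK1 shRNA cells. The difference of -0.75 on the log2 scale (standard error 0.08, adjusted p = 0.000182) left 59.5% of the control level. Adjusted p-values are from limma with Benjamini-Hochberg adjustment over all genes tested, and a log2 fold change is always PAK1 shRNA minus control. The basal epithelial markers, such as KRT5 and KRT14, were well above background on all 4 arrays for 10 of 10 genes, 3 of them higher and 5 lower in PAK1 shRNA cells. The RNA was from whole cultures, so fewer cells in S phase and less RNA per cell cannot be told apart.

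Stretches of 160 bases that end just before the transcription start are given below, to show where the E2F motif was found. They are for E2F1, E2F2, E2F3 and RBL1, with E2F4 and E2F7 as genes without a match. The sequences are those of RefSeq for GRCh38.p14, written 5′ to 3′ along the gene, with matches to the E2F motif in capitals. The stretches lie at chr20:33686386-33686545 on the minus strand for E2F1, chr1:23531234-23531393 on the minus strand for E2F2, chr6:20401719-20401878 on the plus strand for E2F3, chr20:37095998-37096157 on the minus strand for RBL1, chr16:67191995-67192154 on the plus strand for E2F4 and chr12:77065570-77065729 on the minus strand for E2F7.
E2F1: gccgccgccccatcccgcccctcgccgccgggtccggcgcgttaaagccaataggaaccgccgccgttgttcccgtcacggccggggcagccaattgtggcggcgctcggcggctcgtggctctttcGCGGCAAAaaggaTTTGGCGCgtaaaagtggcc
E2F2: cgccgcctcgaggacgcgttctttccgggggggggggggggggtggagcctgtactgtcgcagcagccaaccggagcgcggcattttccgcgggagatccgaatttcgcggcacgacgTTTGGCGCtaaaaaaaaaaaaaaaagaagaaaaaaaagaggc
E2F3: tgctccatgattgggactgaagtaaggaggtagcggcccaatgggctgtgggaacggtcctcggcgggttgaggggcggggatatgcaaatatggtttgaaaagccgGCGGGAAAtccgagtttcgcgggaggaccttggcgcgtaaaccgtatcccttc
RBL1: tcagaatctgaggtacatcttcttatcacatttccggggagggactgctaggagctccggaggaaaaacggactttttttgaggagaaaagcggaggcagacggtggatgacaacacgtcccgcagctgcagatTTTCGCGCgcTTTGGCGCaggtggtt
E2F4: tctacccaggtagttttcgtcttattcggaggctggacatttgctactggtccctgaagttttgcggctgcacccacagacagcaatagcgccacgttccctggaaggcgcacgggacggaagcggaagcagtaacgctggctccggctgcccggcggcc
E2F7: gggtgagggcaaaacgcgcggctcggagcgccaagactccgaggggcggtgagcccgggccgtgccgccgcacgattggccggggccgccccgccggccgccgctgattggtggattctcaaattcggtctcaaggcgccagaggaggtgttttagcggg

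The motif was searched as TTTCCCGC, TTTCGCGC, TTTGCCGC or TTTGGCGC on both strands of windows from 250 bases before to 50 bases after the start. Windows were at hand for 8 of the 10 genes, all but E2F5 and E2F8. The E2F1 window held 2 matches, TTTGCCGC on the opposite strand and TTTGGCGC on the gene's own strand, which begin 33 and 20 bases before the start. RBL1 also held 2, TTTCGCGC and TTTGGCGC, at 26 and 16 bases before the start. E2F2 held TTTGGCGC at 42 bases before the start, and E2F3 held TTTCCCGC on the opposite strand at 53 bases. A match was therefore present in 4 of 8 genes (50%), against 3.99% of all 27305 genes with a window. No match was found in the windows of E2F4, E2F7, RBL2 and RB1, nor in a second window of E2F3. The RB1 window belongs to a start 172699 bases downstream of the gene's 5′ end, so it does not cover the start of the full-length gene. A match is a description of the letters and not of binding, and its link to the differences was not tested. E2F3 held a match and was not called lower, while E2F7 held none and was 2.36-fold lower.

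The activator with the largest difference was E2F2, whose product drives entry into S phase. Its probe (chr1:23832933-23832992, hg19) read 12.67 and 12.78 in control cells and 8.25 and 8.08 in PAK1 shRNA cells, as normalized log2 intensity. Both PAK1 shRNA arrays lay far below both control arrays, and the gap was many times the distance between the arrays of a group. The log2 fold change of -4.56 (standard error 0.09, adjusted p = 3.57e-07) left 4.23% of the control level, and the value was -3.80 with normexp fitted on all spots. Of all genes tested, 0.105% had a lower log2 fold change.

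E2F1, the best known activator, was read by 1 probe printed 10 times on each array (chr20:32263989-32264048, hg19). The mean over its spots was 9.85 and 9.91 in control cells and 6.93 and 6.95 in PAK1 shRNA cells. The standard deviation between the 10 spots was at most 0.253 on any array, and the lowest control spot, at 9.42, stood above the highest PAK1 shRNA spot, at 7.13. Before normalization the median spot intensity fell from 1286 and 1097 to 100.9 and 102.6, with a local background between 43 and 47. The difference of -2.94 on the log2 scale was 7.66-fold (standard error 0.07, adjusted p = 6.81e-07). Its size depended on the background correction, and with normexp fitted on all spots it was -1.94, while the 75th percentile scaling of the processed signal gave -3.88.

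**Figure D1:**
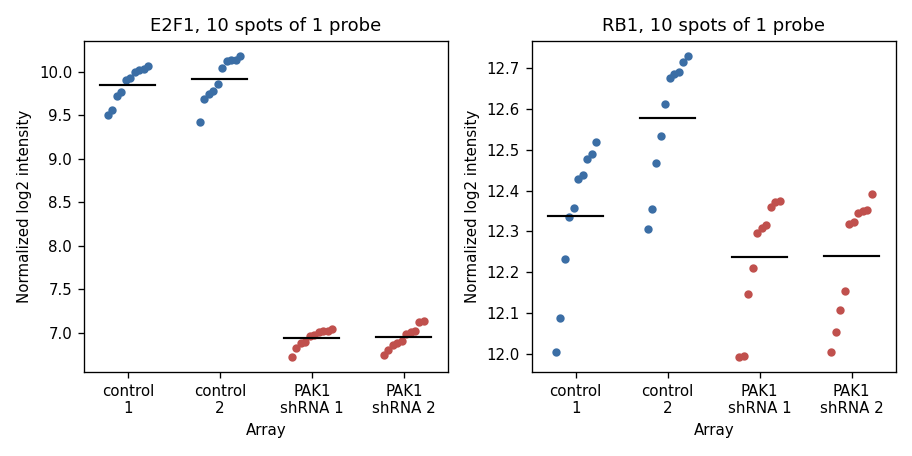
Normalized log2 intensity (vertical axis) of each of the 10 spots of the E2F1 probe (left) and of the RB1 probe (right) on each array. Points are spots of 1 probe and not replicates, and bars are the mean of an array. The E2F1 spots of the groups are fully apart, whereas the RB1 spots overlap between the groups.

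E2F3, the activator that also makes a shorter isoform from an internal promoter, went the other way. Its brighter probe (chr6:20493845-20493904, hg19) read 11.76 and 11.79 in control cells and 12.09 and 12.19 in PAK1 shRNA cells, a log2 fold change of 0.36 (standard error 0.08, adjusted p = 0.00546). Its second probe (chr6:20490602-20490661) read 8.57 and 8.58 in control cells and 8.49 and 8.59 in PAK1 shRNA cells, a difference of -0.04 (adjusted p = 0.681 in the fit of each probe). The 2 probes disagreed, since the arrays of both groups overlapped at the second, and with the mean over both probes E2F3 did not pass (0.16, adjusted p = 0.0986). Which transcripts of E2F3 each probe reads was not annotated here.

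The repressor E2F4, which carries pocket proteins to promoters in resting cells, was read by a probe whose bases span chr16:67231510-67231789 (hg19). It gave 10.75 and 10.85 in control cells and 11.32 and 11.38 in PAK1 shRNA cells. Both PAK1 shRNA arrays were above both control arrays, and E2F4 was higher by 0.55 on the log2 scale (standard error 0.08, adjusted p = 0.000851). E2F5, the other repressor of this kind, read 9.69 and 9.60 in control cells and 9.78 and 9.72 in PAK1 shRNA cells (chr8:86126199-86126258, hg19). The nearest arrays of the groups were closer than the arrays within a group, and the log2 fold change of 0.10 had a 95% interval from -0.08 to 0.29 (adjusted p = 0.281).

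The atypical repressors E2F7 and E2F8, which are known to damp E2F target genes late in S phase, were both lower. E2F7 read 11.90 and 12.04 in control cells and 10.85 and 10.62 in PAK1 shRNA cells at its brighter probe (chr12:77415520-77415579, hg19). Both PAK1 shRNA arrays were below both control arrays, and the difference was -1.24 on the log2 scale (standard error 0.10, adjusted p = 7.03e-05). The second E2F7 probe (chr12:77417576-77417635) gave 8.01 and 8.04 against 7.16 and 7.15, a log2 fold change of -0.87 (adjusted p = 4.79e-05 in the fit of each probe). E2F8 read 8.17 and 8.21 in control cells (chr11:19245675-19245734, hg19), and its spot was not well above background on both PAK1 shRNA arrays, at 6.25 and 6.23. With the processing used here E2F8 was at least 3.86-fold lower (measured log2 fold change -1.95, adjusted p = 2.66e-06). This bound equals the measured fold and does not hold under every setting. E2F8 entered the test through the control arrays alone, where it was the brighter. Its measured value was -1.08 with normexp fitted on all spots and -4.40 with the 75th percentile scaling.

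**Figure D2:**
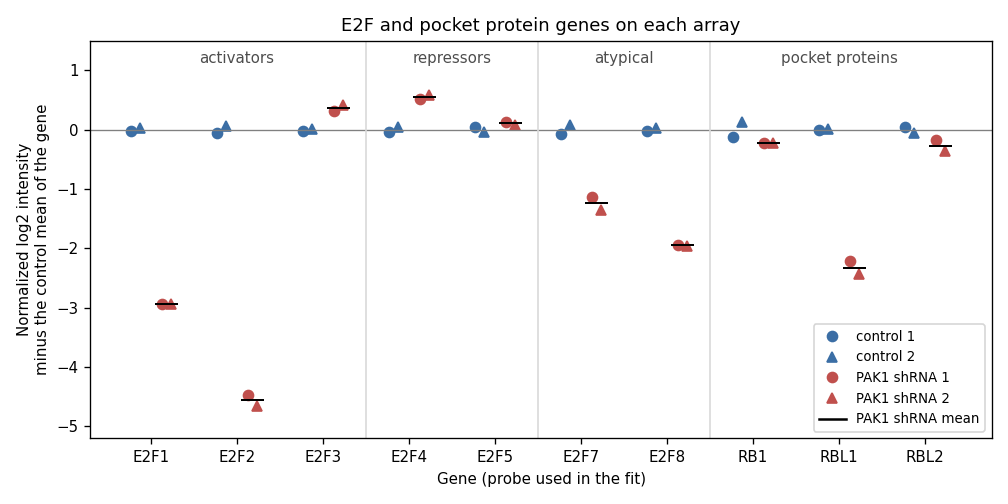
Normalized log2 intensity of each gene on each array minus the gene's control mean (vertical axis), for the probe used in the test. Circles and triangles are arrays 1 and 2 of a group and bars the PAK1 shRNA mean. E2F1, E2F2, E2F7, E2F8 and RBL1 lie below -1 in PAK1 shRNA cells, and the other genes stay near the control mean, from -0.27 for RBL2 to 0.55 for E2F4. E2F8 was not well above background on the PAK1 shRNA arrays.

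Among the pocket proteins, RBL1 stood apart from RB1 and RBL2. RBL1, the pocket protein of cycling cells, read 10.19 and 10.20 in control cells and 7.98 and 7.76 in PAK1 shRNA cells (chr20:35627197-35627256, hg19). It was 5-fold lower, by -2.32 on the log2 scale (standard error 0.09, adjusted p = 3.73e-06), or by -1.67 with normexp fitted on all spots. The second RBL1 probe (chr20:35635829-35635888) fell from 8.14 and 8.25 to 6.58 and 6.37, a difference of -1.72 (adjusted p = 7.59e-06 in the fit of each probe). At both probes the groups were clearly apart.

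RB1, the retinoblastoma protein, was read by 1 probe printed 10 times (chr13:49055845-49055904, hg19), with means of 12.34 and 12.58 in control cells and 12.24 and 12.24 in PAK1 shRNA cells. The control arrays differed from each other by more than the nearer of them differed from the PAK1 shRNA arrays, and the spots of the groups overlapped. The log2 fold change was -0.22 with a 95% interval from -0.45 to 0.01 (adjusted p = 0.0917). It was -0.34 (adjusted p = 0.0204) without control array 1 and -0.30 (adjusted p = 0.0385) under median centring.

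RBL2, the pocket protein of resting cells, read 10.92 and 10.82 in control cells and 10.69 and 10.51 in PAK1 shRNA cells (chr16:53524846-53524905, hg19). The gap between the groups was about as wide as the spread within them, and the log2 fold change was -0.27 (95% interval -0.48 to -0.05, adjusted p = 0.0376). The call was lost in 6 of 17 alternatives. Among these, the value was -0.22 (adjusted p = 0.147) without control array 1, -0.32 (adjusted p = 0.0583) without control array 2 and -0.18 (adjusted p = 0.206) without PAK1 shRNA array 2.

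**Figure D3:**
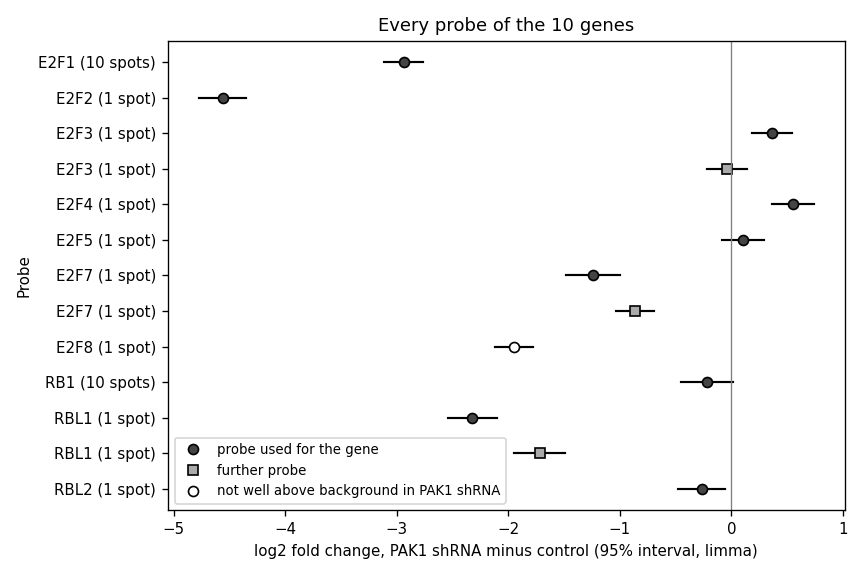
Log2 fold change of PAK1 shRNA minus control (horizontal axis) for each of the 13 probes of the 10 genes, with the 95% interval from limma. Dark circles are the probes used for a gene, squares further probes and the open circle E2F8, which was not well above background in PAK1 shRNA cells. Both probes of E2F7 and of RBL1 are lower, while the 2 E2F3 probes differ.

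In all, 6 of the 10 genes were lower and 2 higher at an adjusted p under 0.05, where 62.9% of all genes tested were called, 31.9% lower and 31% higher. By probe, 10 of 13 were called, against 63.8% of all probes. E2F8 is included in these counts, but it was tested only through the control arrays, where it was bright, so its call carries no weight. A difference of at least 2-fold and an adjusted p under 0.05 was reached downward by 5 of the 10 genes, against 8.96% of all genes, and upward by 0, against 8.85%. Without E2F8 the downward count was 4 of 9. The median log2 fold change of the 10 genes was -0.755, and that of all genes 0.02. With the filter set to all 4 arrays, which leaves out E2F8, the medians were -0.268 and 0.024. Both PAK1 shRNA arrays lay on one side of both control arrays for 10 of 10 genes, but also for 81.8% of all genes. Below lay 7 of them, E2F8 included, against 39.7% of all genes, and above lay E2F3, E2F4 and E2F5, against 42.1%. For a single gene in this design, the smallest p of an exact permutation test (two-sided) is 0.333.

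**Figure D4:**
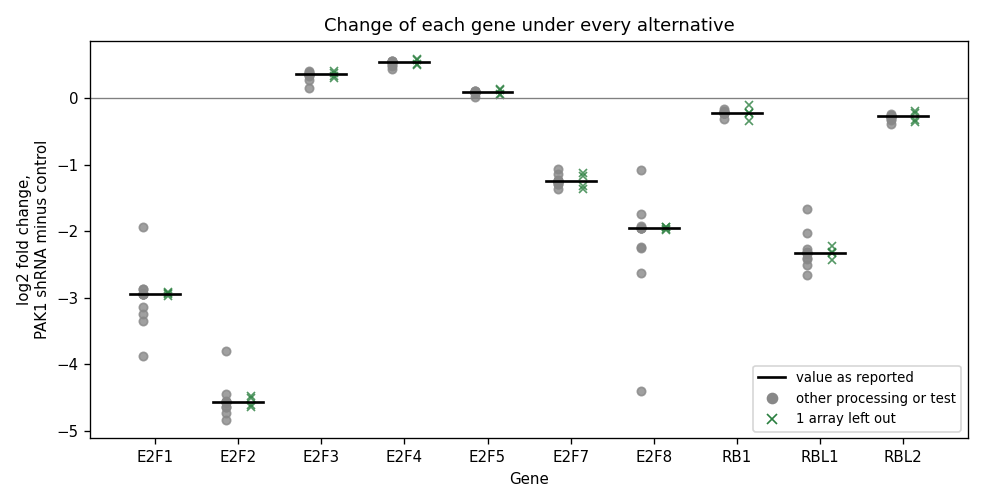
Log2 fold change of each gene (vertical axis) as reported (bar), under each other processing or test (circles) and with 1 array left out (crosses). No gene changes sign. The values of E2F1, E2F2, E2F8 and RBL1 move most, and E2F8 spans -4.40 to -1.08.

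The E2F partner genes were uneven. TFDP1, the main DP partner, read 13.06 and 13.26 in control cells and 12.00 and 11.93 in PAK1 shRNA cells, a log2 fold change of -1.19 (standard error 0.09, adjusted p = 5.39e-05), and -1.36 at its second probe. TFDP2, the other DP partner of most tissues, read 10.76 and 10.93 against 10.98 and 11.00, a difference of 0.14 (95% interval -0.06 to 0.35, adjusted p = 0.186). TFDP3, a DP protein best known from testis, was not well above background in PAK1 shRNA cells and entered the test through the control arrays alone. With the processing used here TFDP3 was at least 1.33-fold lower. Of these 4 genes 2 were lower, but only 1 under median centring or an unpaired t-test. E2F6, a repressor that does not bind pocket proteins, had a log2 fold change of 0.05 (95% interval -0.12 to 0.22, adjusted p = 0.561) at its brightest probe, and of 0.19 and 0.32 at its further probes, the last of which passed (adjusted p = 0.0101 in the fit of each probe).

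Of the cyclins and kinases that release E2F from pocket proteins, 6 of 10 tested genes were lower, 3 were higher and 1 did not pass, with a median log2 fold change of -0.863. Beside this count and those of the other lists, 31.9% of all genes tested were lower and 31% higher. CDC25A, the phosphatase that activates CDK2, had -2.28, CCNE1 (cyclin E1) -1.83 and CCNE2 (cyclin E2) -1.64, each with an adjusted p of at most 2.66e-05. CDK3 was not tested, since its only spot was flagged as an outlier on control array 2, and it read 10.45 on the other control array and 10.52 and 10.54 in PAK1 shRNA cells. The cyclins D went the other way, CCND3 by 1.23 (adjusted p = 7.02e-05) and CCND1 by 0.65 (adjusted p = 0.000763), while CCND2 did not pass (0.06, adjusted p = 0.533). CCNC, a cyclin of the Mediator kinase module that also acts with CDK3 on RB1, had 0.54 (adjusted p = 0.000699).

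Of the inhibitors of these kinases, 3 of 6 tested genes were higher, 2 were lower and 1 did not pass, with a median of 0.298. This count and median include CDKN2A as a higher gene, although what its brighter probe reads was not tested. CDKN1A (p21), a target of p53, read 9.04 and 9.26 in control cells and 10.33 and 10.31 in PAK1 shRNA cells, a log2 fold change of 1.17 (adjusted p = 6.07e-05). CDKN1C (p57) read 10.42 and 10.30 against 8.75 and 8.61, or -1.69 (adjusted p = 9.59e-06), and CDKN1B (p27) had -0.57 (adjusted p = 0.000598). CDKN2C (p18) had 0.51 (adjusted p = 0.0134). CDKN2A had 0.62 (adjusted p = 0.00256), from 11.00 and 10.71 to 11.43 and 11.53. MCF10A is known to lack this gene, yet this probe was well above background on all 4 arrays. A second CDKN2A probe, at 6.14, 6.14, 6.26 and 5.98, was not well above background on any array, and what the brighter probe reads was not tested. CDKN2B was not well above background on any array.

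RBL1, RBL2 and E2F4 or E2F5 also form the DREAM complex with the MuvB core, which holds cell cycle genes silent in resting cells, while B-MYB and FOXM1 join the core later in the cycle. The list of 9 genes also held MYBL1 (log2 fold change -2.11) and DYRK1A (0.055). Of the 9 genes, 6 were lower, 2 higher and 1, DYRK1A, did not pass, with a median of -1.29. FOXM1 read 12.20 and 12.30 in control cells and 8.74 and 8.70 in PAK1 shRNA cells, a log2 fold change of -3.52 (adjusted p = 4.62e-07). LIN9, a core subunit, had -2.48, or -0.84 at its second probe, and MYBL2 (B-MYB) had -2.29, both with an adjusted p of at most 4.74e-06 at the brighter probe. LIN52, the core subunit whose phosphorylation lets DREAM assemble, was higher by 1.39 (adjusted p = 0.00018) and LIN37 by 0.56 (adjusted p = 0.00593).

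Of 14 corepressors that RB1 is known to recruit, 9 were lower, 2 higher and 3 did not pass, with a median of -0.276. SUV39H1, a histone H3 lysine 9 methyltransferase, had -2.44 (adjusted p = 2.83e-06), the histone deacetylase HDAC2 -0.98 (adjusted p = 0.000103) and the histone-binding RBBP7 -0.87 (adjusted p = 8.73e-05). The retinoblastoma-binding proteins ARID4B and ARID4A were higher, by 1.31 (adjusted p = 2.92e-05) and 0.53 (adjusted p = 0.000982). Without PAK1 shRNA array 2, 5 of these genes were lower.

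The genes that E2F factors are known to switch on for DNA replication were lower in 34 of 34 cases, with a median log2 fold change of -2.44 and a range from -4.11 to -0.47. CCNA2 (cyclin A2) read 11.99 and 12.02 in control cells and 7.93 and 7.85 in PAK1 shRNA cells, TK1 (thymidine kinase) 15.93 and 16.10 against 12.17 and 12.13, and GINS2, a subunit of the replicative helicase, 11.77 and 12.00 against 8.01 and 8.04. Their log2 fold changes were -4.11, -3.87 and -3.86, each with an adjusted p of at most 6.81e-07. The E2F motif above was found in 17 of 29 of these genes with a window (58.6%).

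The late cell cycle genes that DREAM and later FOXM1 act on were lower in 26 of 26 cases, with a median of -4.39, or -3.74 with normexp fitted on all spots. For the 25 genes well above background on all 4 arrays the log2 fold changes ran from -5.55 to -2.85 (AURKB). The remaining gene, CCNF, was well above background on 1 of the 2 PAK1 shRNA arrays and was tested through the control arrays alone. The mitotic kinesin KIF20A read 13.48 and 13.44 in control cells and 7.97 and 7.84 in PAK1 shRNA cells, a log2 fold change of -5.55 (adjusted p = 2.04e-07). BIRC5 (survivin) had -5.32 and CENPF, a kinetochore protein, -5.25, both with an adjusted p of at most 5.43e-07. Their windows held the E2F motif in 2 of 21 genes (9.52%) and the CHR element of late promoters (TTTGAA or TTCGAA on both strands) in 16 of 21 (76.2%), against 19.5% of all genes. Among the 8 E2F and pocket protein genes with a window, E2F3 and RBL2 held a CHR match (25%), near the share of all genes.

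The genes through which E2F1 is known to act in cell death were higher in 7 of 10 cases and lower in 3, with a median of 0.527. Of all genes tested, 31% were higher and 31.9% lower. CDKN2A is counted here too, although what its brighter probe reads was not tested. PMAIP1 (NOXA), which sensitizes mitochondria and is also a target of p53, read 10.53 and 10.78 in control cells and 14.54 and 14.99 in PAK1 shRNA cells, a log2 fold change of 4.11 (adjusted p = 3.25e-06). BBC3 (PUMA), which acts at mitochondria as well, had 2.35 (adjusted p = 1.63e-06). TP73, a p53 relative that E2F1 is known to induce, had -1.55 (adjusted p = 7.69e-06) and APAF1, the scaffold of the apoptosome, -0.74 (adjusted p = 0.000188). PPP1R13B (ASPP1), a partner of p53, had -0.66 (adjusted p = 0.000418) at its brighter probe and 0.15 (adjusted p = 0.124 in the fit of each probe) at the other, so its probes disagreed.

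Markers of other cell types moved with the groups. Over the 7 leukocyte markers the summed normalized intensity was 28000 and 25700 in control cells and 61000 and 66500 in PAK1 shRNA cells, and over the luminal markers 184000 and 179000 against 327000 and 340000. Of 8 luminal markers 3 were higher, 2 were lower and 2 did not pass, and PGR was not well above background on any array. The luminal sum was led by KRT18 and XBP1, with log2 fold changes of 0.48 and 2.58, while GATA3 had -0.49 and KRT19 -1.02. The leukocyte sum was led by CD14, the brightest of these markers on every array. CD14 read 14.21 and 14.15 in control cells and 15.45 and 15.56 in PAK1 shRNA cells. Of the leukocyte markers 4 were higher, CD68 by 3.752, CD14 by 1.325, CD79A by 0.482 and ITGAM by 0.463 on the log2 scale. The other 3 did not pass. The defining PTPRC (CD45) and CD3E were among the latter, with log2 fold changes of 0.13 (adjusted p = 0.221) and 0.14 (adjusted p = 0.14). For fibroblast markers the sums were 4920 and 4170 against 8220 and 8020, with COL1A2, COL3A1 and PDGFRA not well above background on any array. Of the 4 fibroblast markers tested 3 were higher and 1 lower. For endothelial markers the sums were 1140 and 1170 against 948 and 921, with 1 of 5 higher (VWF, 0.37), 2 lower (PECAM1, -1.56, and TEK, which was not well above background in PAK1 shRNA cells) and 2 not passing. The part of these shifts in the differences of the E2F and pocket protein genes was not tested.

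For the gene with the largest difference among activators, pocket-dependent repressors and pocket proteins, the genes most like it were those at the smallest Euclidean distance between mean-centred log2 values over the 4 arrays. They were CEP55, KIF2C and CIT for E2F2, at distances of 0.091, 0.092 and 0.157, and 15 genes lay within 0.25. For RBL1 they were MANEAL, TRIM7 and FAM102A, at 0.02 to 0.043, with 96 genes within 0.25. For E2F4 they were MRPL44, MFN1 and MMP7, at 0.009 to 0.016, but 2301 genes lay within 0.25, so its profile was shared by many. Over 4 arrays in 2 groups this distance mostly measures the difference between the groups.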

How the data were processed

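Total RNA of 2 control and 2 PAK1 shRNA samples was hybridized in 1 colour to Agilent whole human genome arrays on 1 slide. The authors deposited spot intensities from Agilent Feature Extraction (version 9.5 in the submitters' processing notes), not normalized between arrays. A deposited table of log2 values for 24302 probes (medians 9.418, 9.423, 9.404 and 9.397, background offset unknown) correlated at r of at least 0.9993 with the values used here and served as an alternative. Probe positions (hg19) and gene names were taken from the scanner files, and exons or UTRs were not annotated here.

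Background was corrected with normexp (offset 50) before quantile normalization in limma 3.58.1 (R 4.3.3). Unlike in the methods, spots of flagged background were kept out of the normexp fit, since with them the fitted mean on the control arrays was -666 and -740, against -9.19 and -12.1 without them. Control spots and outlier-flagged ones were dropped, and a probe's remaining spots were averaged. A probe was tested if it was well above background on every array of 1 group or more, and the brightest probe represented a gene. Groups followed the sample labels. lmFit and eBayes were run without covariates at an adjusted p of 0.05 (Benjamini-Hochberg over 21999 genes), after the code was tested on simulated data. A gene not well above background in a group is given as a bound, which holds for this processing only. The number of arrays limits the precision. Promoters were RefSeq windows of GRCh38.p14.

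The genes and lists were chosen with earlier results of these data known. Named were all 10 genes, PAK1, the E2F partners, up to 3 rises and 3 falls of each linked list among genes bright enough on all arrays, CDKN2A, and 3 genes nearest in profile for each role (not given for E2F8, which was near background). Cell type markers, AURKB, CCNF and CCND2 are named outside this rule, and 1 gene that it names is not reported here. Alternatives covered the background correction, offset, scaling, filter, flags, probe rule, deposited log2 table, the methods' t-test, thresholds, a replicate block and each array left out.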

Additional observations from a re-analysis of the deposited data

How the results depend on the processing

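None of the log2 fold changes of PAK1 and the 10 genes changed sign under the 17 alternatives (16 for E2F8). E2F1, E2F2, E2F4, E2F7 and RBL1 passed in all of those run, with ranges of -3.88 to -1.94, -4.84 to -3.80, 0.44 to 0.60, -1.36 to -1.06 and -2.66 to -1.67, and E2F5 in none. E2F8 ranged from -4.40 to -1.08, but it entered the test through the control arrays alone, so its calls carry no weight. It was not tested among probes well above background on all 4 arrays. The mean over probes took E2F3 to 0.162 (adjusted p = 0.0986) and left 1 of the 10 genes higher. RB1 passed under median centring (-0.302, adjusted p = 0.0385). RBL2 did not pass with an offset of 16 (-0.274, adjusted p = 0.0511), the 75th percentile scaling (-0.309, adjusted p = 0.0526) or the methods' t-test (-0.268, adjusted p = 0.173), which is the unpaired test of the general statistics section and not the limma test named for the arrays. The cause was not tested. With each array left out in turn, RB1 ranged from -0.34 to -0.099, passing without control array 1, and RBL2 from -0.353 to -0.183, not passing without control array 1, control array 2 or PAK1 shRNA array 2. The methods' t-test called 4370 genes higher, and a 2-fold threshold left 1947 genes higher and 1971 lower, with 0 of the 10 genes higher. Of the counts of the lists of linked genes, 288 stayed within 1.5 times and 16 fell further, 9 of them under the 2-fold threshold. The median of all genes shifted to 0.119 with the 75th percentile scaling and 0.137 under median centring. Same-numbered arrays did not deviate together (r = 0.01 across 21999 genes), and a replicate block changed no call among the 10 genes (E2F1 adjusted p = 3.17e-08, RB1 0.071, RBL2 0.0224), with 6973 genes higher and 7069 lower. A slide block could not be fitted with 1 slide. Signals near background, as for E2F8, limit what a fold can show.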
